A study of Mus musculus with 18 samples.

Results

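The HoxD cluster genes Hoxd1, Hoxd3, Hoxd4, Hoxd8, Hoxd9 and Hoxd10 were followed through mouse motor neuron differentiation and through the induction of single Hoxc genes. The 6 members were taken by their Entrez identifiers (15429, 15434, 15436, 15437, 15438 and 15430, in that order) from count tables of 27179 genes. RNA was sequenced from embryoid bodies, which are floating aggregates made from embryonic stem cells, after treatment with retinoic acid and SAG, an agonist of Hedgehog signalling. There were 18 libraries in 6 groups of 3, with 24498630 to 33168533 counted reads in each. Day 2 progenitors came from the Ainv15(iCre) line and received no doxycycline (Dox). Control neurons were Ainv15(iFlag.Hoxc6) cells at day 4, also without Dox. The iHoxc6, iHoxc8, iHoxc9 and iHoxc10 neurons were day 4 cells of the Ainv15(iFlag.Hoxc6), Ainv15(iFlag.Hoxc8), Ainv15(iFlag.Hoxc9) and Ainv15(iFlag.Hoxc10) lines given Dox at 3 µg/ml for 48 h, which switches on 1 Flag-tagged copy of the named gene placed at the Hprt locus. Each induced gene was studied in 1 line, and no Dox-free cells of the Hoxc8, Hoxc9 or Hoxc10 line were analysed here, and these 3 lines were sequenced in other runs than control neurons, so the effects of line, Dox, transgene and sequencing run cannot be told apart in their comparisons with control.

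Hox genes encode homeodomain transcription factors that give cells their position along the body axis. They lie in clusters, and their order on the chromosome follows the order in which they are used from head to tail, so that Hoxd1, Hoxd3 and Hoxd4 are anterior genes, Hoxd8 is a central gene and Hoxd9 and Hoxd10 are posterior genes. Retinoic acid switches on the anterior end of the clusters in the hindbrain and cervical spinal cord. Genes of the same number in different clusters are paralogs with related proteins. In mice, Hoxd3 and Hoxd4 shape the upper neck vertebrae, Hoxd1 acts in pain-sensing neurons, and Hoxd10 acts in the lumbar spinal cord and hindlimb.

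The cluster lies on chromosome 2 and its Hoxd genes are read from the plus strand (GRCm38, the build of mm10). Measured from the start site of Hoxd13 at the posterior end, the RefSeq start sites of the members lie at 23.7 kb (Hoxd10), 29.5 kb (Hoxd9), 36.4 kb (Hoxd8), 43.8 kb (Hoxd3), 53.8 kb (Hoxd4) and 94.8 kb (Hoxd1). Hoxd4 (chr2:74721978-74729160) lies inside the annotated span of Hoxd3 (chr2:74711993-74748271). Their GENCODE exons share 388 bases, and the GENCODE gene Gm28230 shares 2225 exon bases with Hoxd3 and 1154 with Hoxd4. Reads were counted per RefSeq gene, and the exons of the transcripts linked to RefSeq share 0 bases. The exact exons used in the counting were not checked, so the division of reads between Hoxd3 and Hoxd4 remains uncertain. The antisense RNA gene Hoxd3os1 (chr2:74710044-74716130, minus strand) overlaps the start of Hoxd3. The strand setting of the read counting is not given in the sources used here, so reads of Hoxd3os1 and of the sense genes may not be fully told apart.

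The promoters of the 4 members with counts in every library are shown because these are the genes whose levels are compared below. Reads were counted per gene, so the use of single start sites was not measured. Each RefSeq sequence (GRCm38.p6) holds 300 bases, 250 before the start site and 50 after it, and capitals mark TTTAT, a core of posterior Hox sites, and TAAT, a core of anterior and central Hox sites, each searched on both strands (ATAAA and ATTA are the other strand).
Hoxd8, chr2:74704365-74704664, plus strand: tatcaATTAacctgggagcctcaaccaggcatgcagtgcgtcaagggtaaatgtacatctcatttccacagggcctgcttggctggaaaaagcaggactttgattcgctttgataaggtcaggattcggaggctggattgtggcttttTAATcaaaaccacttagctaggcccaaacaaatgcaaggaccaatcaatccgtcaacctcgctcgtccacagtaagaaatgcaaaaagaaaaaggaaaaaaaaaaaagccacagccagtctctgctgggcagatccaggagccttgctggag
Hoxd3, chr2:74711743-74712042, plus strand: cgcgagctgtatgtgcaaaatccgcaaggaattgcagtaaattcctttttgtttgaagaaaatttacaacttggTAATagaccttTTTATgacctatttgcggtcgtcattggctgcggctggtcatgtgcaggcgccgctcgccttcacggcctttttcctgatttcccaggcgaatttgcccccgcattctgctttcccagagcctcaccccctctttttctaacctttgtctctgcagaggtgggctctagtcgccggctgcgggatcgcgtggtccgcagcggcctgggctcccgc
Hoxd4, chr2:74721728-74722027, plus strand: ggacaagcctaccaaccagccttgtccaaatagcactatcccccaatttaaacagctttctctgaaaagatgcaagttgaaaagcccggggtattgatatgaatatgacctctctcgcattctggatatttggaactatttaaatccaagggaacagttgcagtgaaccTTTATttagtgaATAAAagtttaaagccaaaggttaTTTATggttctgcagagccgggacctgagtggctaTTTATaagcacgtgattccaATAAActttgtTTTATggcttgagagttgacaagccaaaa
Hoxd1, chr2:74762730-74763029, plus strand: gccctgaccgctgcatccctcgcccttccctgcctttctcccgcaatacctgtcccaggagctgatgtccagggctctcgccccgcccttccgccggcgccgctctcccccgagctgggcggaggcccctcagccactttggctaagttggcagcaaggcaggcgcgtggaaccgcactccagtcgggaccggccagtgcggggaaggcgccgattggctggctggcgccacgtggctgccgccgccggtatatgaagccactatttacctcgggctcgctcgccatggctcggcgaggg
The Hoxd4 promoter held 6 matches to TTTAT and 0 to TAAT. Of 32851 RefSeq mouse promoters of this length, 13143 held TTTAT at least once and 0.502% held it 6 times or more. The Hoxd3 promoter held 1 match to each core, the Hoxd8 promoter held 2 matches to TAAT and 0 to TTTAT, and the Hoxd1 promoter held neither; TAAT was found in 58.0% of all promoters. The joint PBX and posterior Hox motif TGATTTAT, which contains TTTAT, was found in none of the 4 windows and in 0.977% of all promoters. AGGTCA, the core that retinoid receptors bind, was found once each in the promoters of Hoxd8 (135 bases before the start site), Hoxd3 (161 bases) and Hoxd4 (145 bases), not in that of Hoxd1, and in 16.3% of all promoters. The promoters also differed in base content, with 29 CpG in Hoxd1, 20 in Hoxd3, 6 in Hoxd8 and 4 in Hoxd4 against a median of 7 over all promoters. GC content was 69.7% in Hoxd1, 54.0% in Hoxd3, 46.7% in Hoxd8 and 39.7% in Hoxd4, against a median of 52.7%. The shares of promoters with a motif were not adjusted for base content, and TTTAT holds only A and T. A match of letters describes the window and shows no binding.

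The members spanned the whole range from abundant to undetected. In CPM (counts per 1000000 reads of a library, scaled with TMM factors), Hoxd3 and Hoxd4 were high in every group, Hoxd1 and Hoxd8 were low, and Hoxd9 and Hoxd10 were at background. Hoxd9 had 7 reads in all, at most 2 in any library, below the floor of 3 counts (0.0883 to 0.122 CPM). Hoxd10 had 0 reads in all 18 libraries, which allows a level of up to 0.00570 CPM over the whole set, a limit that covers counting error only. Hoxd9 and Hoxd10 therefore receive no fold change below, and the 4 other members carry the comparisons.

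**Figure D1:**
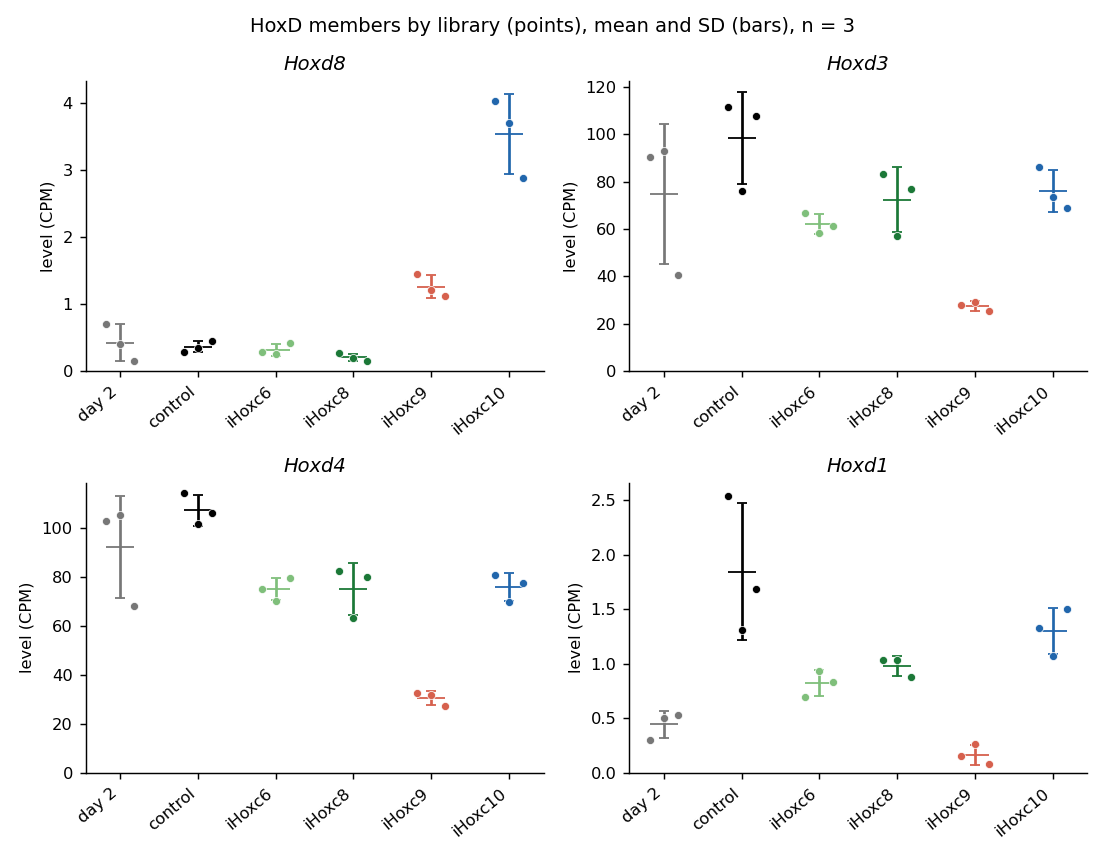
Level (CPM, linear axis from 0) of Hoxd8, Hoxd3, Hoxd4 and Hoxd1 in each of the 18 libraries. Points are libraries, horizontal marks are group means and bars are SD (n = 3). Hoxd3, Hoxd4 and Hoxd1 have their lowest day 4 values in iHoxc9 neurons, and Hoxd8 has its highest values in iHoxc10 neurons, followed by iHoxc9 neurons.

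Levels of different genes were compared per kilobase of GENCODE exon. Reads were counted on RefSeq genes, so these lengths can hold bases on which no read was counted. For Hoxd3 the length was 4191 bases, against 2968 in the transcripts linked to RefSeq. In control neurons Hoxd4 had 36.4 ± 2.17 CPM per kb (SD, n = 3) and Hoxd3 23.5 ± 4.62 CPM per kb, followed by Hoxd1 at 0.990 ± 0.338 and Hoxd8 at 0.132 ± 0.0295 CPM per kb. The level therefore did not change evenly along the cluster. The neighbours Hoxd8 and Hoxd3, whose start sites are 7.38 kb apart, had the largest ratio of levels among neighbours, whereas the largest difference in CPM per kb was between Hoxd4 and Hoxd1 at the anterior end. In iHoxc10 neurons Hoxd8 (1.29 ± 0.215 CPM per kb) had a higher mean than Hoxd1 (0.699 ± 0.115), and in iHoxc9 neurons Hoxd8 (0.458 ± 0.0626) also stood above Hoxd1 (0.0897 ± 0.050), whereas in control neurons the order was the opposite. With the length of the transcripts linked to RefSeq, which is nearer to what was counted, Hoxd3 in control neurons came to 33.2 and Hoxd4 to 41.9 CPM per kb. The 2 genes thus stood closer together than with GENCODE lengths.

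**Figure D2:**
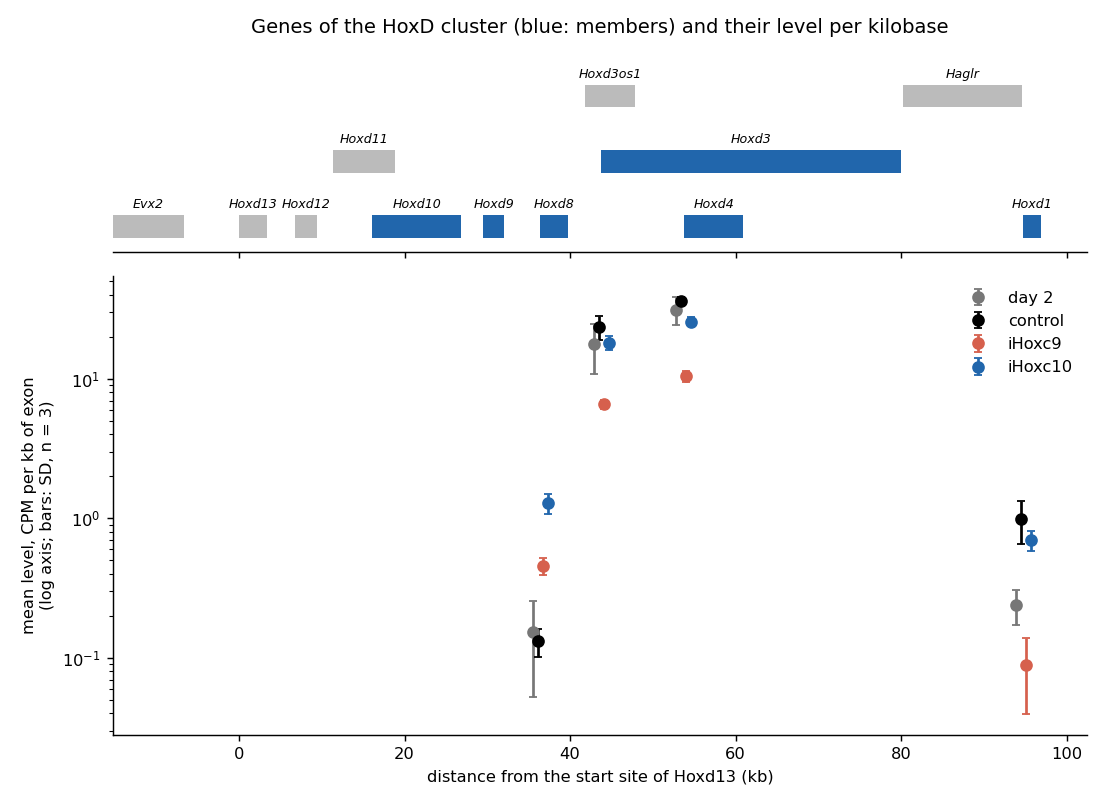
Upper panel, annotated spans of the HoxD genes (blue, the members; grey, others) by distance from the start site of Hoxd13 in kb. Lower panel, mean level per kilobase of exon on a log axis (bars, SD, n = 3) of Hoxd8, Hoxd3, Hoxd4 and Hoxd1 in 4 groups, with points shifted sideways so that they can be seen. Hoxd3 and Hoxd4 lead in every group, and Hoxd8 stands above Hoxd1 in iHoxc9 and iHoxc10 neurons but below it in control neurons. At day 2 the SD ranges of Hoxd8 (0.153 ± 0.101 CPM per kb) and Hoxd1 (0.239 ± 0.0663) overlap.

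The passage from day 2 progenitors to day 4 control neurons was associated with a rise of Hoxd1. Hoxd1 stood at 0.303, 0.499 and 0.531 CPM in the day 2 libraries and at 2.54, 1.31 and 1.68 CPM in the control libraries. Every control library lay above every day 2 library. The fitted rise was 4.13-fold, a log2 fold change of 2.05 ± 0.32 (SE) with an adjusted p of 1.24e-05 (edgeR quasi-likelihood test, Benjamini-Hochberg over all 20944 genes tested).

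Hoxd3 and Hoxd4 were already high at day 2. Hoxd3 measured 90.3, 93.0 and 40.6 CPM at day 2 and 111, 76.2 and 108 CPM in control neurons, and the groups overlapped, with low values in the third day 2 and the second control library. Its log2 fold change was 0.40 ± 0.22 (adjusted p = 0.136), and 0.10 without that day 2 library (adjusted p = 0.647). Hoxd4 measured 103, 105 and 68.2 CPM at day 2 and 114, 102 and 106 CPM in control neurons, again with the third day 2 library lowest (log2 fold change 0.22 ± 0.15, adjusted p = 0.243, and 0.042 without that library, adjusted p = 0.862). Hoxd8 was near its floor at both times, with 0.707, 0.399 and 0.156 CPM at day 2 and 0.289, 0.347 and 0.449 CPM in control neurons (log2 fold change -0.21 ± 0.42, adjusted p = 0.727).

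Of the 6 members, 5 passed the filter on low counts and were tested (Hoxd10 was not), and 1 was called higher in control neurons (adjusted p under 0.01), beside 21.2% of all genes tested; 0 were called lower, by edgeR and by DESeq2 alike, 0 had an unadjusted p under 0.05 in that direction, and 21.2% of all genes were called lower. Hoxd1 also passed the study's further threshold of a log2 fold change above 2, as did 12.6% of all genes. Over 13 alternative fits its log2 fold change ranged from 1.74 to 2.24, so that threshold was not passed in all of them. Control neurons and day 2 progenitors differ in cell line and sequencing run as well as in time, and these cannot be told apart.

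Induction of Hoxc9 went with lower levels of the 3 anterior members and a higher level of Hoxd8. Hoxd4 measured 32.7, 31.9 and 27.5 CPM in iHoxc9 neurons, and Hoxd3 measured 28.05, 29.1 and 25.4 CPM. These 3 libraries lay close together and far below all 3 control libraries for both genes. Hoxd4 fell 3.49-fold (log2 fold change -1.80 ± 0.16, adjusted p = 1.60e-08) and Hoxd3 fell 3.58-fold (-1.84 ± 0.23, adjusted p = 3.17e-06).

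Hoxd1 fell further. It measured 0.156, 0.265 and 0.0796 CPM in iHoxc9 neurons, from 4, 9 and 2 reads, so the third library was under the floor of 3 counts. The groups did not overlap, and the fitted fall was 10.4-fold (log2 fold change -3.38 ± 0.38, adjusted p = 7.67e-07). Over 13 alternative fits the log2 fold change of Hoxd1 ranged from -3.97 to -3.07. It was the only member to pass the study's log2 threshold of 2 in this comparison, as did 2.70% of all genes.

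Hoxd8 moved the other way. It measured 1.45, 1.21 and 1.11 CPM in iHoxc9 neurons (37, 41 and 28 reads) against at most 0.449 CPM in control neurons. All 3 iHoxc9 libraries lay above all control libraries, with a rise of 3.46-fold (log2 fold change 1.79 ± 0.37, adjusted p = 0.00122). The sign of the gene-level change thus differed between Hoxd8 and Hoxd3, whose annotated start sites are neighbours on the same strand.

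In counts, 3 members were lower and 1 was higher in iHoxc9 than in control neurons, where 7.13% of all genes tested were lower and 6.95% higher. The median log2 fold change of the 4 members above the floor was -1.82, and that of all genes was 0.00126. Every one of these 4 calls held in all 13 alternative fits.

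Day 2 progenitors came from another line and sequencing run than iHoxc9 neurons, so time, line, run, Dox and transgene cannot be told apart between them. Hoxd3 and Hoxd4 were lower in iHoxc9 neurons than at day 2. The log2 fold change was -1.44 ± 0.23 for Hoxd3 (adjusted p = 8.85e-06) and -1.59 ± 0.15 for Hoxd4 (adjusted p = 9.04e-09). Hoxd1 had a log2 difference of -1.33 ± 0.43 that missed the threshold (adjusted p = 0.0115). Hoxd8 was higher than at day 2 (1.58 ± 0.36, adjusted p = 0.000669). Thus 2 members were lower and 1 was higher, where 23.3% of all genes tested were lower and 23.4% were higher.

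In iHoxc10 neurons the change in the cluster was at Hoxd8. Hoxd8 measured 4.03, 3.69 and 2.88 CPM (115, 103 and 71 reads), and every library stood above every library of the other 5 groups. Against control neurons it rose 9.74-fold (log2 fold change 3.28 ± 0.36, adjusted p = 1.02e-06), past the study's log2 threshold of 2, as were 1.48% of all genes.

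The anterior members did not pass the test in iHoxc10 neurons. Hoxd1 measured 1.33, 1.07 and 1.499 CPM and overlapped with control neurons (log2 fold change -0.51 ± 0.29, adjusted p = 0.227). Hoxd3 measured 86.0, 73.6 and 68.8 CPM, also overlapping (-0.37 ± 0.22, adjusted p = 0.246). Hoxd4 measured 80.8, 69.7 and 77.5 CPM, below all 3 control libraries, but its difference of -0.50 ± 0.15 had an adjusted p of 0.0188 with edgeR and was called with DESeq2 (adjusted p = 0.00763). The edgeR count was 1 member higher, where 6.67% of all genes tested were higher, and 0 lower, where 7.75% were lower. With DESeq2 1 member was lower, and 1 was lower at an unadjusted p under 0.05. The share of all genes called by DESeq2 is not given here.

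Induction of Hoxc6 or Hoxc8 gave smaller differences. In iHoxc6 neurons Hoxd1 measured 0.697, 0.934 and 0.834 CPM, Hoxd3 66.7, 58.3 and 61.4 CPM, and Hoxd4 75.1, 70.4 and 79.6 CPM. For each of these 3 genes all iHoxc6 libraries lay below all control libraries. The log2 differences were -1.17 ± 0.30 for Hoxd1 (adjusted p = 0.0388), -0.66 ± 0.22 for Hoxd3 (adjusted p = 0.0897) and -0.52 ± 0.15 for Hoxd4 (adjusted p = 0.0609). Hoxd8, at 0.279, 0.249 and 0.417 CPM, overlapped with control neurons (-0.20 ± 0.44, adjusted p = 0.866). By edgeR 0 members were called, although 3 were lower at an unadjusted p under 0.05; DESeq2 called 2 lower, Hoxd1 (adjusted p = 0.00988) and Hoxd4 (adjusted p = 0.00838). By edgeR few genes were called at all in this comparison, 0.224% lower and 0.363% higher. The share of all genes called by DESeq2 is not given here. Control replicate 2 weighed on Hoxd1, which was called without it (log2 fold change -1.36, adjusted p = 0.00668). Both groups came from the same line and sequencing run, so this comparison is free of those differences. Dox and the expressed transgene still differed between the groups and cannot be told apart.

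In iHoxc8 neurons Hoxd1 measured 1.03, 1.03 and 0.876 CPM (log2 difference -0.91 ± 0.29, adjusted p = 0.0584) and Hoxd4 82.6, 63.1 and 80.0 CPM (-0.51 ± 0.15, adjusted p = 0.0388). Both genes lay below all control libraries without passing the edgeR threshold. Hoxd3, at 83.2, 57.1 and 76.7 CPM, overlapped with control neurons (-0.44 ± 0.22, adjusted p = 0.228). Hoxd8 was at its lowest here, at 0.266, 0.200 and 0.156 CPM (9, 6 and 5 reads), below all control libraries but not past the threshold (-0.77 ± 0.46, adjusted p = 0.332). The edgeR test called 0 members, 2 were lower at an unadjusted p under 0.05, and DESeq2 called 1 lower, Hoxd4 (adjusted p = 0.00596). By edgeR, 1.09% of all genes were lower and 1.03% higher. The share called by DESeq2 is not given here.

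**Figure D3:**
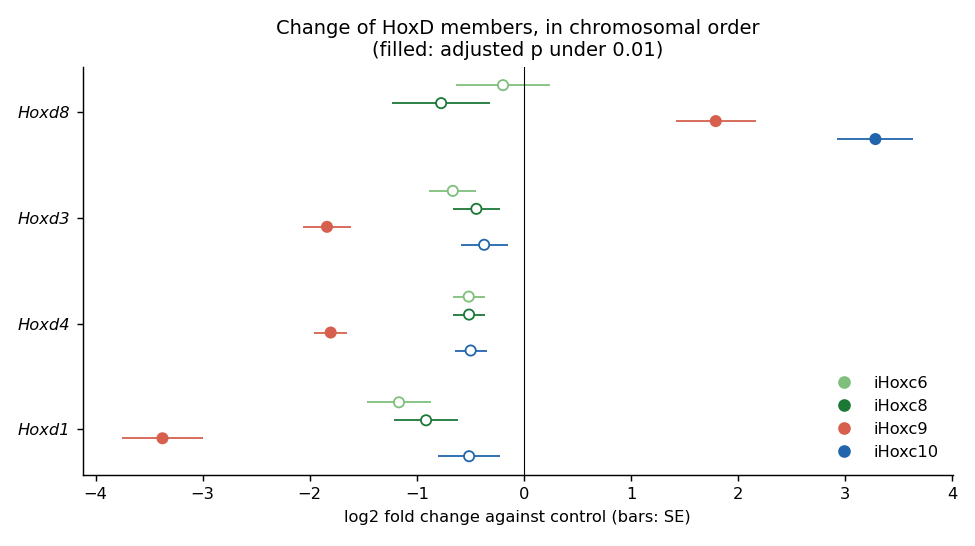
Log2 fold change against control neurons (points; bars, SE) of Hoxd8, Hoxd3, Hoxd4 and Hoxd1, in the order of the chromosome, for the 4 induced lines. Filled points have an adjusted p under 0.01. In iHoxc9 neurons Hoxd8 lies at 1.79 and Hoxd1 at -3.38, and in iHoxc10 neurons only the Hoxd8 point, at 3.28, is filled.

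The lines were also compared with each other, since they share the control samples and their changes against control are not independent. iHoxc9 and iHoxc10 neurons were sequenced in the same run, so this contrast lies within a run. All 4 detected members were lower in iHoxc9 neurons, where 2.40% of all genes tested were lower. Hoxd1 differed by a log2 value of -2.86 ± 0.39 (adjusted p = 2.22e-05), Hoxd3 by -1.47 ± 0.23 (adjusted p = 1.03e-04) and Hoxd4 by -1.31 ± 0.15 (adjusted p = 3.58e-06). Hoxd8 was 2.81-fold higher in iHoxc10 neurons (log2 difference -1.49 ± 0.31 for iHoxc9 over iHoxc10, adjusted p = 0.00227). The Hoxd8 call was lost when 1 library was left out in 4 of the 6 cases: iHoxc9 replicate 2 (adjusted p = 0.0145) or 3 (0.0150), and iHoxc10 replicate 1 (0.0169) or 2 (0.0121), while the direction and size stayed.

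Although Hoxd8 was higher in iHoxc10 than in iHoxc9 neurons, the ranges of its share of the members' reads overlapped between these groups. Hoxd8 made up 1.93% to 2.32% of the reads of the 6 members in the iHoxc9 libraries and 1.91% to 2.49% in the iHoxc10 libraries. In the other 4 groups the share was 0.0991% to 0.364%. The sum over the 6 members was 54.1 to 62.5 CPM in iHoxc9 neurons and 148 to 172 CPM in iHoxc10 neurons. The ratio of Hoxd3 to Hoxd4 reads had group means between 0.785 and 1.00 and ranged from 0.596 (the third day 2 library) to 1.06 in single libraries.

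iHoxc6 neurons had more Hoxd1 (log2 difference 2.21 ± 0.40, adjusted p = 3.94e-04), Hoxd3 (1.18 ± 0.22, adjusted p = 6.34e-04) and Hoxd4 (1.29 ± 0.15, adjusted p = 2.36e-06) than iHoxc9 neurons, and less Hoxd8 (-1.99 ± 0.38, adjusted p = 6.03e-04). That is 3 members higher and 1 lower, where 3.68% of all genes tested were higher and 8.02% lower. Between iHoxc6 and iHoxc10 neurons, 1 member was lower in iHoxc6, where 6.17% of all genes were lower. This was Hoxd8 (log2 difference -3.48 ± 0.36, adjusted p = 9.15e-07), while Hoxd4 differed by -0.02 ± 0.15 (adjusted p = 1.0).

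The contrasts with iHoxc8 neurons were looked at after the others. Against iHoxc8 neurons, iHoxc9 neurons had less Hoxd1 (log2 difference -2.46 ± 0.39, adjusted p = 1.27e-04), Hoxd3 (-1.40 ± 0.22, adjusted p = 1.41e-04) and Hoxd4 (-1.29 ± 0.15, adjusted p = 2.57e-06), and more Hoxd8 (2.56 ± 0.40, adjusted p = 8.49e-05). That is 3 members lower and 1 higher, where 2.42% of all genes tested were lower and 2.95% higher. In iHoxc10 against iHoxc8 neurons 1 member was higher, Hoxd8 (4.06 ± 0.38, adjusted p = 2.38e-07), where 1.67% of all genes were higher. Between iHoxc8 and iHoxc6 neurons 0 members were called by edgeR or DESeq2 and 0 had an unadjusted p under 0.05, where 3.07% of all genes were higher in iHoxc8 and 0.482% lower. In these 3 contrasts the sequencing run differed as well.

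Ordered by mean level, the groups fell into few separable steps. For Hoxd3 the order was control, iHoxc10, day 2, iHoxc8, iHoxc6 and iHoxc9, and only the last pair of neighbours differed (adjusted p = 6.34e-04). For Hoxd4 the order was control, day 2, iHoxc10, iHoxc8, iHoxc6 and iHoxc9, and again only iHoxc6 and iHoxc9 differed among neighbours (adjusted p = 2.36e-06). For Hoxd8 the order was iHoxc10, iHoxc9, day 2, control, iHoxc6 and iHoxc8, with a step between the first pair (adjusted p = 0.00227) and between iHoxc9 and day 2 (adjusted p = 6.69e-04) and no other. For Hoxd1 the order was control, iHoxc10, iHoxc8, iHoxc6, day 2 and iHoxc9, and no pair of neighbours passed the threshold, the nearest being day 2 and iHoxc9 (adjusted p = 0.0115).

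The induced genes themselves were read as a check of the labels. Hoxc6, which was listed on its own as an induced gene, had 532, 500 and 511 CPM in iHoxc6 neurons. It had 5.17, 2.58 and 1.80 CPM in control neurons of the same line. It averaged 47.3 CPM in iHoxc10 neurons and at most 2.14 CPM in the other groups besides control. Hoxc9 reached 224 CPM in iHoxc9 neurons, Hoxc10 430 CPM in iHoxc10 neurons and Hoxc8 389 CPM in iHoxc8 neurons, on average over 3 libraries and including the transgene. Hoxd9, the HoxD paralog of Hoxc9, had 1 read in the iHoxc9 libraries together, and Hoxd10, the paralog of Hoxc10, had 0. Hoxd8, the paralog of Hoxc8, was not above control neurons in iHoxc8 neurons. Whether reads of Hoxc9 or Hoxc10 were counted at Hoxd8 in their lines was not tested.

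The paralogs in the HoxA, HoxB and HoxC clusters were read from a list of 13 genes of groups 1, 3, 4, 8, 9 and 10, of which 12 were tested. In iHoxc9 neurons 7 were lower and 1, the induced Hoxc9, was higher than in control neurons (median log2 fold change -1.61 against 0.00126 for all genes). Of all genes tested, 7.13% were lower and 6.95% higher. Hoxa3 (-1.65 ± 0.15) and Hoxb3 (-1.40 ± 0.17) fell beside Hoxd3 (-1.84 ± 0.23). In group 4, Hoxa4 (-3.54 ± 0.20), Hoxb4 (-3.32 ± 0.15) and Hoxc4 (-2.38 ± 0.14) had larger log2 values than Hoxd4 (-1.80 ± 0.16). Group 8 had opposite signs: Hoxb8 went from 178 to 60.0 CPM in iHoxc9 neurons (-1.56 ± 0.16, adjusted p = 1.69e-07), whereas Hoxd8 rose (1.79 ± 0.37). The differences between paralogs were not tested.

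In iHoxc10 neurons 2 of the 12 tested paralogs were higher, Hoxa3 (0.73 ± 0.14, adjusted p = 7.65e-04) and the induced Hoxc10, and 1 was lower, Hoxb4 (-1.18 ± 0.14, adjusted p = 4.05e-06). Among all genes tested, 6.67% were higher and 7.75% lower. Hoxb8 had a log2 difference of 0.22 ± 0.15 (adjusted p = 0.351) beside the 3.28 ± 0.36 of Hoxd8. In iHoxc6 neurons 0 paralogs were called, and in iHoxc8 neurons 1 was higher (the induced Hoxc8) and 1 lower (Hoxb9). The shares of all genes were 0.363% higher and 0.224% lower in iHoxc6, and 1.03% higher and 1.09% lower in iHoxc8 neurons.

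**Figure D4:**
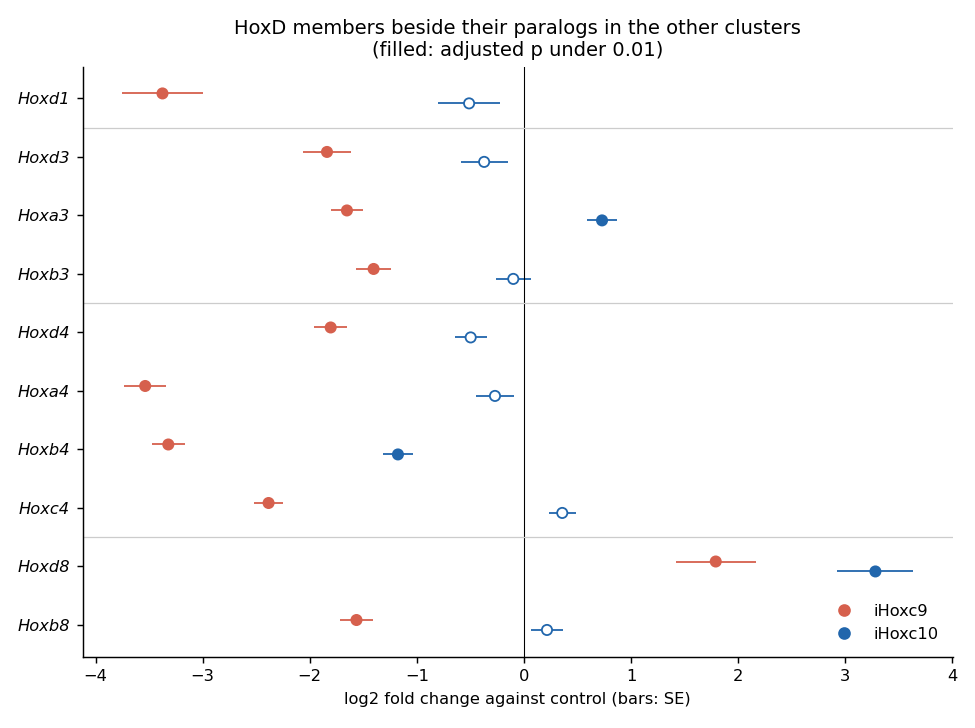
Log2 fold change against control neurons (points; bars, SE) of Hoxd1, Hoxd3, Hoxd4 and Hoxd8 beside paralogs of groups 3, 4 and 8, set apart by grey lines, in iHoxc9 and iHoxc10 neurons. Filled points have an adjusted p under 0.01. In iHoxc9 neurons all the genes drawn lie below 0 except Hoxd8 at 1.79, and Hoxb8 lies at -1.56.

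The genes whose levels were most like those of each member, by Pearson's r of log2(CPM + 1) over the 18 libraries and among 13712 genes, were mostly other Hox genes for the anterior members. They were Hoxb7 (0.920), Sstr1 (0.904) and Hoxb6 (0.904) for Hoxd1; Hoxd4 (0.951), Hoxb3 (0.891) and Hoxb2 (0.866) for Hoxd3; and Hoxd3 (0.951), Hoxb4 (0.930) and Hoxb2 (0.917) for Hoxd4. For Hoxd8 they were Pde11a (0.974), Tnfsf13b (0.948) and Csgalnact1 (0.946). Genes were ranked if their mean reached 1 CPM in any group. Pde11a and Tnfsf13b reached it only in iHoxc10 neurons, where Hoxd8 was also highest. Their high r therefore describes a shared peak and is no evidence of a link with Hoxd8. Pde11a, which encodes a phosphodiesterase, averaged 2.53 CPM in iHoxc10 and 0.998 CPM in iHoxc9 neurons, and 0.0549 to 0.187 CPM in the other 4 groups. It lies on the same chromosome (chr2:75985808-76339145), 1281 kb beyond the Hoxd8 start site. Between members, r was 0.697 for Hoxd4 and Hoxd1 and -0.265 for Hoxd4 and Hoxd8. These values describe 18 libraries that share groups, and Hoxd3 and Hoxd4 share annotated bases in GENCODE.

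Of a list of 10 genes in and around the cluster, 8 were in the tables and 6 were tested. In iHoxc9 and in iHoxc10 neurons 1 was lower than in control neurons (Mtx2) and 0 were higher, and in iHoxc6 and in iHoxc8 neurons 1 was higher (Hoxd3os1) and 0 were lower. Of all genes tested, 7.13% were lower in iHoxc9 and 7.75% in iHoxc10 neurons. The share of higher genes was 0.363% in iHoxc6 and 1.03% in iHoxc8 neurons. The posterior genes Hoxd11 and Hoxd12 had 0 reads in all libraries, and Hoxd13 and Evx2, a homeobox gene beyond it, averaged at most 0.0878 CPM in any group. Atp5g3, which encodes a subunit of the ATP synthase, stayed between group means of 312 and 385 CPM with no call in the 4 comparisons with control. Lnpk, which encodes a membrane protein of the endoplasmic reticulum, was also not called against control (for iHoxc9, log2 difference 0.56 ± 0.26, adjusted p = 0.131).

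Hoxd3os1 followed another pattern than Hoxd3, across whose start it is transcribed on the opposite strand. It had 1 read in the 3 day 2 libraries together and 1.61, 0.501 and 0.898 CPM in control neurons. The control mean of Hoxd3os1 was 10.2 times the floor of 3 counts per library at day 2. It measured 3.76, 3.73 and 3.16 CPM in iHoxc6 neurons and 4.35, 3.17 and 3.38 CPM in iHoxc8 neurons, above all control libraries in both. The log2 fold change was 1.80 ± 0.32 in iHoxc6 (adjusted p = 0.00287) and 1.83 ± 0.32 in iHoxc8 (adjusted p = 0.00157). In iHoxc9 neurons, where Hoxd3 fell, Hoxd3os1 overlapped with control neurons at 1.25, 0.883 and 1.63 CPM (0.29 ± 0.34, adjusted p = 0.573), and likewise in iHoxc10 neurons (0.13 ± 0.34, adjusted p = 0.855).

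Mtx2, the first gene beyond Hoxd1, encodes a protein of the mitochondrial outer membrane. It measured 98.4, 61.2 and 112 CPM in control neurons and 131, 129 and 48.5 CPM at day 2, against 37.1 to 49.7 CPM in all 12 libraries of the induced lines. The third day 2 library and the second control library were the lowest of their groups, as they were for Hoxd3. Against control neurons Mtx2 was called lower in iHoxc9 (-1.21 ± 0.25, adjusted p = 0.00109) and iHoxc10 neurons (-1.01 ± 0.25, adjusted p = 0.00425). Its values in iHoxc6 (-1.10 ± 0.25, adjusted p = 0.0204) and iHoxc8 neurons (-0.91 ± 0.25, adjusted p = 0.0265) were not past the threshold. Unlike the members, Mtx2 did not separate iHoxc9 from iHoxc10 neurons (-0.20 ± 0.25, adjusted p = 0.735).

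**Figure D5:**
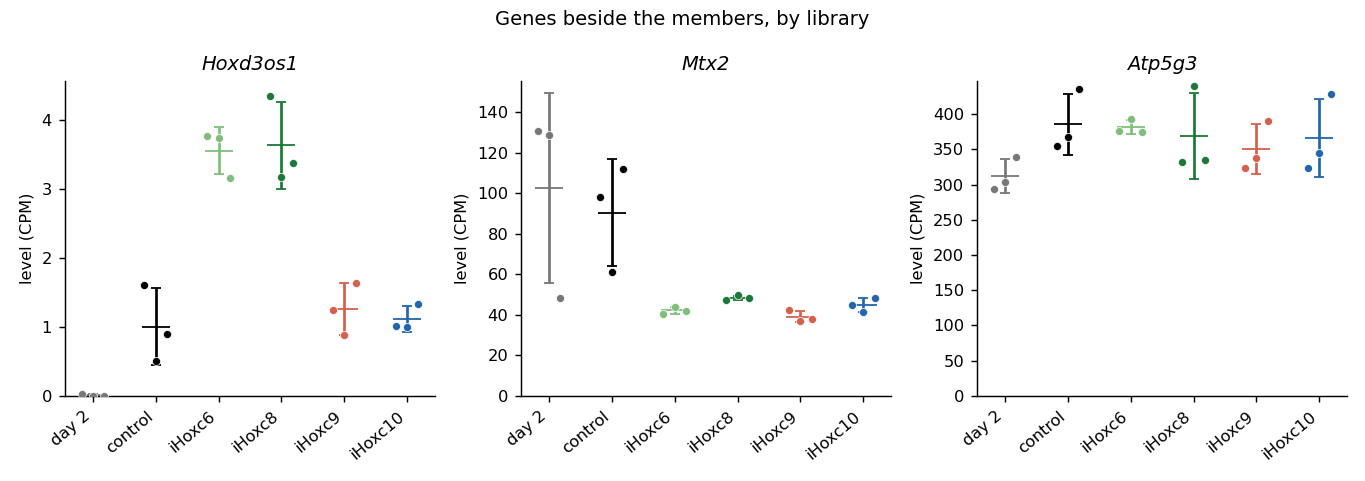
Level (CPM, linear axis from 0) of Hoxd3os1, Mtx2 and Atp5g3 in each library; points are libraries, horizontal marks are means and bars are SD (n = 3). Hoxd3os1 is highest in iHoxc6 and iHoxc8 neurons, and Mtx2 is spread in day 2 and control libraries and lies between 37.1 and 49.7 CPM in all libraries of the induced lines.

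Genes of Hox partners, of retinoid signalling and of the Cdx family were counted from lists. Of 8 genes for the PBX, MEIS and PKNOX cofactors, with which Hox proteins bind DNA, 1 was higher (Pknox1, 0.72 ± 0.11) and 2 were lower (Pbx3, -0.51 ± 0.14, and Pknox2, -1.30 ± 0.19) in iHoxc9 than in control neurons. In iHoxc10 neurons 2 were higher (Pbx3 and Meis2) and 0 lower, and in iHoxc6 and iHoxc8 neurons 0 were called. For these counts and those that follow, the shares of all genes tested were 6.95% higher and 7.13% lower in iHoxc9 neurons. In iHoxc10 neurons they were 6.67% higher and 7.75% lower. They were 0.363% higher and 0.224% lower in iHoxc6, and 1.03% higher and 1.09% lower in iHoxc8 neurons. Of 12 genes of retinoid signalling and the Cdx family, some of which act upstream of Hox genes, 11 were tested. In iHoxc9 neurons 1 was higher and 2 were lower. The higher one was Cyp26a1, which encodes an enzyme that degrades retinoic acid, at 131 CPM against 5.87 CPM in control neurons (4.48 ± 0.23, adjusted p = 8.87e-12). The lower ones were Cyp26b1, a second such enzyme (-3.07 ± 0.27), and Rxrg, a retinoid receptor (-1.82 ± 0.17). Cyp26a1 was higher in iHoxc10 neurons too, at 30.3 CPM (2.36 ± 0.22), with Aldh1a2, which encodes an enzyme that makes retinoic acid (2.66 ± 0.22), and Rxrg was lower (-2.04 ± 0.17). In iHoxc6 and in iHoxc8 neurons Aldh1a2 was higher and Rxrg lower. The study reports Aldh1a2 (as Raldh2) as a marker of the lateral motor column that Hoxc6, Hoxc8 and Hoxc10 induce. The part of retinoid genes in the HoxD levels was not tested.

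The libraries are mixtures of cells, so fewer cells with a transcript and less RNA per cell cannot be told apart. A list of 6 motor neuron genes (Mnx1, Isl1, Lhx3, Chat, Slc18a3 and Isl2) summed to 543 to 569 CPM in control neurons, 391 to 444 in iHoxc6, 428 to 463 in iHoxc8, 483 to 545 in iHoxc10 and 296 to 322 in iHoxc9 neurons. A list of 3 interneuron genes (En1, Gata3 and Sim1) summed to 1.00 to 1.64 CPM in control neurons, 16.04 to 20.8 in iHoxc9 and 4.09 to 8.20 in iHoxc10 neurons. Of these, Sim1 rose in iHoxc9 (log2 fold change 5.16 ± 0.36) and iHoxc10 neurons (3.49 ± 0.36), while En1 and Gata3 were not called in either. Among the day 4 groups the summed motor neuron genes were thus lowest and the summed interneuron genes highest in iHoxc9 neurons, where Hoxd1, Hoxd3 and Hoxd4 were lowest. Single genes of the lists did not all follow the sums. Isl2 averaged 46.4 CPM in iHoxc9, 45.4 in control and 7.45 in iHoxc10 neurons, Lhx3 was lowest in iHoxc10 neurons (22.2 CPM, against 30.7 in iHoxc9), and Gata3 averaged 0.219 CPM in iHoxc9 and 0.249 CPM in control neurons. The interneuron sum in iHoxc9 neurons was almost all Sim1 (17.1 CPM on average). The part of cell composition in the HoxD result was not tested. Progenitor genes (Olig2, Nkx6-1, Sox1, Sox2 and Pax6) summed to 336 to 375 CPM at day 2 and 134 to 250 CPM at day 4, and 3 genes of postmitotic neurons (Tubb3, Map2 and Elavl3) to 223 to 417 and 3433 to 5629 CPM. Nkx6-1 did not follow the progenitor sum, with means of 43.6 CPM at day 2 and 40.4 to 53.5 CPM in the day 4 groups. Sox2 averaged 72.8 CPM at day 2, 39.7 in control and 85.1 in iHoxc9 neurons. Markers of pluripotent cells (Pou5f1, Nanog, Zfp42 and Esrrb) summed to at most 1.00 CPM in every day 4 library. Floor plate genes (Shh and Foxa2) summed to 14.9 to 100.3 CPM at day 4, lowest in an iHoxc9 library. The lists for mesoderm, endoderm, glia and neural crest stayed at or below 3.15, 2.47, 5.98 and 2.43 CPM in the day 4 libraries.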

How the data were processed

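Per the labels and the study's methods, polyadenylated RNA was made into stranded libraries, sequenced as single-end reads and aligned to mm10 by the authors with STAR (2.7.0c). The authors deposited raw read counts per RefSeq gene, made with featureCounts, as whole numbers for 27179 Entrez identifiers, of which 25275 matched a symbol in RefSeq (GRCm38.p6). Replicates are separate samples in the labels and independent differentiations per the study's description. Total counts ranged from 24498630 to 33168533.

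Counts were analysed with edgeR (4.0.16, R 4.3.3): TMM scaling, 1 quasi-likelihood fit over all 18 libraries with group as the term, and 20944 genes with at least 1 count in an induced line. Genes were called at a Benjamini-Hochberg adjusted p under 0.01 over all genes tested. The standard error is the log2 fold change divided by the root of F. The fit was tested on simulated data in which only well-counted genes were changed. That test did not cover genes with as few reads as Hoxd1 and Hoxd8. Libraries of a group differed by more than sampling noise. The genes named are the members, the induced Hoxc6, the lists of neighbours, paralogs, cofactors, retinoid and Cdx genes and cell markers, and the 3 genes most like each member. Some genes of these lists are not reported here. The members and lists were chosen with earlier results of these data known. Levels per kilobase used GENCODE vM21 exons.

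Replicate numbers are shared between groups. Deviations of same-numbered libraries correlated above 0.1 for every number between iHoxc9 and iHoxc10 (0.579, 0.474 and 0.651) and between iHoxc6 and iHoxc9 (0.142, 0.215 and 0.117), and between iHoxc8 and iHoxc6 (0.287, 0.630 and 0.610), and not in the other 8 comparisons. The values reported come from the fit without a replicate block, and the block was run as an alternative for every comparison. Alternatives were DESeq2 (1.42.0), other scalings and filters, fits of the compared groups alone, a replicate block and leaving out each library. Promoters and their motifs came from RefSeq sequences. No other genome sequence and no protein sequence was used here.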

Additional observations from a re-analysis of the deposited data

Results flagged for a closer look

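Changes against control differed between induced lines for the following members, by the direct contrast of the lines (edgeR, adjusted p under 0.01). Between iHoxc9 and iHoxc10 neurons the log2 difference was -2.86 for Hoxd1, -1.47 for Hoxd3, -1.31 for Hoxd4 and -1.49 for Hoxd8. All were lower in each of the 3 iHoxc9 libraries than in each of the 3 iHoxc10 libraries. Between iHoxc6 and iHoxc9 neurons it was 2.21 for Hoxd1, 1.18 for Hoxd3, 1.29 for Hoxd4 and -1.99 for Hoxd8. Between iHoxc6 and iHoxc10 neurons it was -3.48 for Hoxd8. Between iHoxc9 and iHoxc8 neurons it was -2.46 for Hoxd1, -1.40 for Hoxd3, -1.29 for Hoxd4 and 2.56 for Hoxd8, and between iHoxc10 and iHoxc8 neurons 4.06 for Hoxd8. Between iHoxc8 and iHoxc6 neurons 0 members passed. Line, transgene and, in all these contrasts but that of iHoxc9 with iHoxc10, sequencing run cannot be told apart.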

How the results depend on the processing

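The number of members called depended on the tool where edgeR was near its threshold. DESeq2 called 2 members in iHoxc6 (edgeR 0), 1 in iHoxc8 (edgeR 0) and 2 in iHoxc10 neurons (edgeR 1). The share of all genes called by DESeq2 is not given here. Without control replicate 2 the edgeR number in iHoxc6 was 1, so leaving out single libraries gave 0 to 1. A log2 fold change above 2 as well left 1 member each in iHoxc9 against control, iHoxc9 against iHoxc10 and iHoxc6 against iHoxc9, where 4 were called, and 2 of 4 in iHoxc9 against iHoxc8. With the replicate block the numbers were 4 for iHoxc9 against control, 4 for iHoxc9 against iHoxc10, 4 for iHoxc6 against iHoxc9 and 1 for iHoxc10 against control, and the replicate block changed no call of a member. Signs turned only for differences that had not passed the test. When single libraries were left out, Hoxd8 in control against day 2 ranged from -0.62 to 0.35 (without day 2 replicate 1), Hoxd8 in iHoxc6 against control from -0.41 to 0.0028 (without control replicate 3), and Hoxd4 in iHoxc6 against iHoxc10 from -0.077 to 0.0289 (above 0 without iHoxc6 replicate 2 or iHoxc10 replicate 1). The last was 0.0098 with no filter on low counts. Hoxd3 in iHoxc10 against iHoxc8 (0.073) ranged from -0.042 to 0.202 and Hoxd4 from -0.067 to 0.103, the latter -0.017 with no TMM factor; both turned without iHoxc8 replicate 2 or iHoxc10 replicate 1. Hoxd4 in iHoxc8 against iHoxc6 (0.0032) ranged from -0.113 to 0.082, was -0.047 with no filter on low counts and -0.0012 with the replicate block. With log2(CPM + 0.1), 1 of the 3 genes most like Hoxd1 remained. Total counts without TMM factors, the contrasts with iHoxc8 other than that against control, and exons linked to RefSeq were added after seeing the data. At this depth Hoxd9 and Hoxd10 were at or under the floor, and Hoxd1 and Hoxd8 rest on few reads.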
